A study of Mus musculus with 34 samples.

Results

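Genes for 6 ATP-binding cassette (ABC) transporters were followed in mouse liver: Abcb11, Abcb4, Abcc2, Abcb6, Abcd3 and Abcc6. They are all the array features that carry 1 of these symbols in the probe annotation, and make up 6 of 1019 named genes and of 1856 features tested. Liver RNA of 7 thermoneutral mice (TN) and 6 mice under chronic heat stress (HS) was hybridised on 34 two-colour arrays against a universal mouse reference RNA, with the dyes exchanged on some arrays of a mouse. The probes were rat-specific oligonucleotides, and which mouse transcript each spot read was not tested.

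The TN mice were fed an endophyte-free fescue diet at thermoneutral conditions. The HS mice were kept under heat for 2 weeks. The temperature, 34 °C, stands in the labels of 8 HS arrays, the age at the start, 27 d, in 7 and the age at the end, 40 d, in 5. ICR, an outbred strain, is named on HS arrays, while the labels give neither the age and strain of the TN mice nor the diet of the HS mice. Heat therefore cannot be told apart from differences in strain, diet, age or handling between the groups. No transgene or deletion is named for either group. Mouse identifiers begin with F or M (3 F and 4 M among the TN mice, 3 F and 3 M among the HS mice). One label calls M242 female, so the letter is used here only as a letter.

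ABC transporters are membrane proteins that use ATP to move a substrate across a membrane. At the canalicular membrane of the hepatocyte, the face toward the bile, ABCB11 (the bile salt export pump) secretes bile salts, ABCB4 turns phosphatidylcholine outward so that the bile salts can take it up, and ABCC2 exports conjugated bilirubin, glutathione conjugates and other organic anions. Bile salt receptors of the nuclear receptor class are textbook regulators of the first of these pumps. ABCB6 carries porphyrins, the precursors of heme. ABCD3, also called PMP70, is an abundant protein of the peroxisome membrane that takes in fatty acyl-CoA and bile acid precursors for shortening. ABCC6 releases ATP from hepatocytes, and its loss leads to mineral deposits in elastic tissue.

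The start regions of these genes are shown because nuclear receptors and the heat shock factor read short motifs in DNA. RefSeq promoters (GRCm38.p6, 250 bases before to 50 bases after the start of a gene) were found for 5 of the 6 genes, with 2 entries for Abcd3. The nuclear receptor half-site AGGTCA, searched on both strands, was present in 3 of these 6 promoters and in 16.3% of 32851 mouse promoters. The stretches of 150 bases before the start of the genes that hold it are printed with the half-site in capitals, at chr2:69342617-69342766 (minus strand) for Abcb11, chr1:75180393-75180542 (minus strand) for Abcb6 and chr19:43782158-43782307 (plus strand) for Abcc2.
Abcb11: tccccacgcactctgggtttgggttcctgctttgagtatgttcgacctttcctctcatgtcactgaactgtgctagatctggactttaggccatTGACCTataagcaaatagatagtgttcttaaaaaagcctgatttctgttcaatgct
Abcb6: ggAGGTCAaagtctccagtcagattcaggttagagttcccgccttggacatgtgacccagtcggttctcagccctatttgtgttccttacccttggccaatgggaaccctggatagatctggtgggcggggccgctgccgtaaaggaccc
Abcc2: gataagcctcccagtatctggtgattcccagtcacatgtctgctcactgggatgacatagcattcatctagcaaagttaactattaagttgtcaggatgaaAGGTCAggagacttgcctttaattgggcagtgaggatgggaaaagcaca
The half-site lay 148 to 143 bases before the start of Abcb6 and 49 to 44 bases before that of Abcc2, on the strand of the gene. In Abcb11 it lay 56 to 51 bases before the start on the opposite strand, where it is written TGACCT. Paired heat shock element letters, GAANNTTC or TTCNNGAA, were in 0 of the 6 promoters and in 15.1% of all. A CCAAT box, searched on both strands, was in 3 of the 6 (Abcb6, Abcb4 and Abcc2) and in 37.4% of all. The share of G and C ran from 45.0% in Abcc2 to 76.3% in 1 of the Abcd3 entries, against a median of 52.7% over all promoters. A match describes letters in this window only.

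Values are log2 ratios of liver over reference, with 0 at the median spot of an array, and each mouse value was fitted from its 1 to 4 arrays. Higher or lower than the reference therefore means a ratio above or below that of the median spot. Whether the median spot itself has equal amounts in the 2 RNAs was not tested. A ratio compares the same gene in 2 RNAs, so a higher ratio for one transporter than for another does not rank their amounts of RNA. The labelled tissue was checked on 31 hepatocyte markers, of which 24 to 29 lay above the array median on arrays with liver RNA in Cy5 and 25 to 29 on arrays with it in Cy3. With limma and Benjamini-Hochberg adjustment over 1856 features, 26 of the 31 were above the reference and 1 below. The mean of the 31 markers per mouse ran from 1.61 to 2.32 in the TN mice and from 1.59 to 2.27 in the HS mice, and 0 differed between the groups. Of genes listed for other cells, Krt8 did not differ from the reference by the same test. It was the 1 gene measured of 11 listed for bile ducts, and whether it marks them here was not tested. Below the reference were 3 of 4 Kupffer cell and macrophage markers and 2 of 3 stellate cell and matrix markers, and Hba-a1 of red blood cells was above it. Of 2 pancreas and fat markers measured, Prss1 was above it by 0.35 (limma adjusted p = 0.025) and Cfd did not differ by the test. No lymphocyte or endothelial marker was among the genes measured, and 0 markers of any cell type passed the test for heat. In RNA of whole liver, fewer cells of a type and less RNA per cell cannot be told apart. The Cy5 array of M244 and the Cy3 array of F241 stood apart, with median correlations of 0.46 with the other arrays and median absolute deviations of 2.46 and 1.91 against a median of 0.98. The Cy3 array of F241 gave the highest single values of Abcb11 and Abcb4. The first Cy5 array of F222 had a median correlation nearly as low, 0.48, with a median absolute deviation of 1.01. It gave the lowest single values of Abcb11 (-1.10) and Abcc2 (-0.01), and it was kept where the other 2 arrays were left out.

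Of the 6 transporters, 5 (all but Abcc6) were higher in liver than in the reference, and Abcc6 was lower. Of all features, 24.1% were higher and 24.4% lower by the same test. The array was built from liver genes and the members were picked as liver transporters, so their count is read only as a description. Abcd3 was 4.12-fold above the median spot (95% interval 3.40 to 4.98), Abcb6 3.56-fold (2.92 to 4.34) and Abcc2 3.08-fold (2.44 to 3.89). Abcb4 was 1.99-fold above it (1.58 to 2.50) and Abcb11 1.98-fold (1.48 to 2.65). Abcc6 was 2.36-fold below it (1.93 to 2.88). The limma adjusted p-values were 4.3e-12 for Abcd3, 6.1e-11 for Abcb6, 7.9e-09 for Abcc2, 1.0e-05 for Abcb4, 0.00023 for Abcb11 and 5.6e-08 for Abcc6. Abcb4, Abcc2, Abcb6 and Abcd3 were above 0 in 13 of 13 mice, Abcb11 in 10 and Abcc6 in 0. The reference was 1 pool, so its own spread is not in these intervals.

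**Figure D1:**
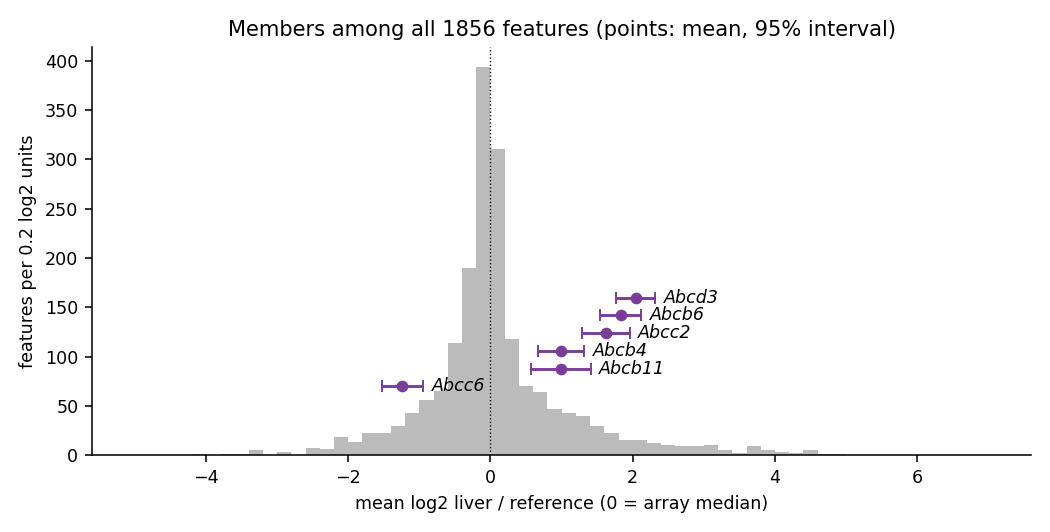
Mean log2 liver over reference ratio (horizontal axis) of each transporter, with its 95% interval, over a histogram of the same mean for all 1856 features (vertical axis, features per bin); the heights of the points carry no value. Abcd3, Abcb6 and Abcc2 lie at the 94.8th, 94.2nd and 92.6th percentile of all features, Abcb4 and Abcb11 at about the 86th, and Abcc6 at the 6.9th.

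The study's question was how chronic heat changes gene expression in the liver. None of the 6 transporters passed the test for heat, and nor did any other feature: 0% of 1856 were called higher and 0% lower by limma with Benjamini-Hochberg adjustment, where the lowest adjusted p was 0.999. At an unadjusted p under 0.05, limma gave 45 features, or 2.42%, and an exact permutation test over mice gave 58. Abcb6 was the 1 member among those 45. The counts of 45 and 58 are both below what a threshold of 0.05 gives on average when no feature differs. In 0% of features did the mice of the groups not overlap, and the groups overlapped for all 6 members. In data simulated from these mice the fit called 48% of features given a true difference of 1 log2 unit and 98% of those given 2. Many simulated features carried true differences, of 0.5 to 3 log2 units, and this eases the adjusted threshold. With 0 features called in the real data, these shares overstate what would be called if only a few features changed. The p-values for heat rest on the spread of the fitted mouse values, which holds the spread between arrays as well as that between mice. In the main fit a mouse with 1 array counts as much as one with 4, and the number of arrays limits the precision.

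**Figure D2:**
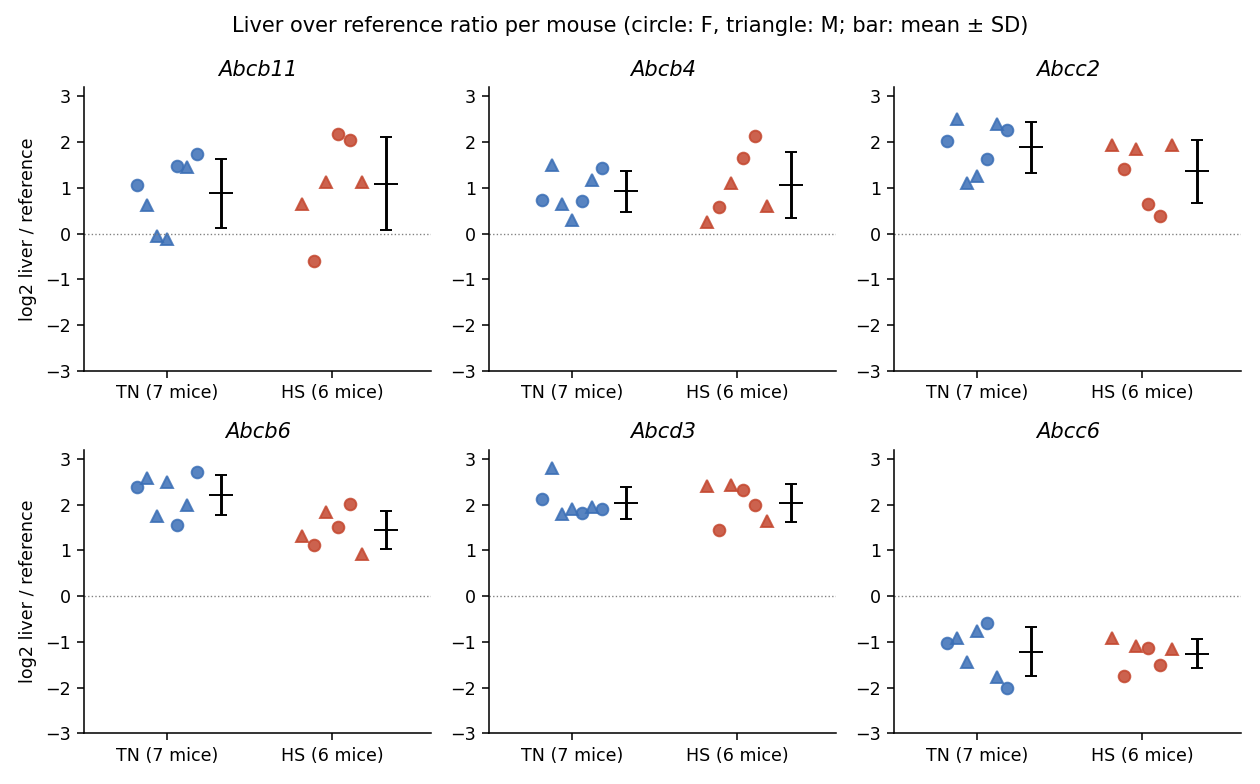
Log2 liver over reference ratio (vertical axis) of each mouse for the 6 transporters, TN in blue and HS in red, circles for F and triangles for M identifiers, with bars for the mean ± SD of each group. The Abcb6 panel shows all HS points below the TN mean, while the Abcd3 groups have the same mean of 2.04.

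Of the canalicular pumps, Abcb11 varied most between mice. Its TN values ran from -0.13 in M243 through a median of 1.06 to 1.75 in F223, and its HS values from -0.59 in F222 through 1.14 to 2.18 in F203. The lowest and the highest value of all 13 mice were thus both in HS mice. The means were 0.88 ± 0.75 (SD, n = 7) in TN and 1.09 ± 1.01 (SD, n = 6) in HS. The HS minus TN difference was 0.21 (SE 0.41, 95% interval -0.63 to 1.05; exact permutation p = 0.67), so a 2-fold change is not excluded. Leaving out F222 moved it to 0.56, and leaving out F203, which had 1 array, to -0.0081. The SD between mice within groups was 0.88, at the 95.4th percentile of all features, whose median was 0.57.

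Abcb4, the phosphatidylcholine translocator, had nearly the same mean ratio as Abcb11 but a narrower spread. Its TN values ran from 0.31 in M243 through a median of 0.73 to 1.51 in M211, and its HS values from 0.26 in M233 through 0.85 to 2.14 in F241. Of the HS mice 3 were above the TN mean and 3 below. The means were 0.93 ± 0.45 (SD, n = 7) and 1.06 ± 0.72 (SD, n = 6), and the difference was 0.13 (SE 0.32, 95% interval -0.53 to 0.78; exact permutation p = 0.70). The interval excludes a 2-fold change in either direction. F241, the highest mouse, rests on arrays that read 0.57 and 3.71, and without it the difference was -0.066.

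Abcc2, the organic anion exporter, had a lower mean in the HS mice, by less than the test can call. The TN values ran from 1.10 in M251 through a median of 2.02 to 2.51 in M211. The HS values ran from 0.39 in F241 through 1.63 to 1.93 in M233. Of the 6 HS mice 4 were below the TN mean. The means were 1.88 ± 0.56 (SD, n = 7) and 1.36 ± 0.68 (SD, n = 6), a difference of -0.52 (SE 0.33, 95% interval -1.20 to 0.15; exact permutation p = 0.16). Leaving out 1 mouse at a time gave -0.66 (without M251) to -0.34 (without F241). The 3 lowest HS values were those of the F mice, at 0.39 in F241, 0.66 in F203 and 1.41 in F222, while the HS M mice lay between 1.86 and 1.93. The difference was -1.16 (SE 0.45) among F mice and 0.09 (SE 0.42) among M mice. The difference between these differences was -1.24 (SE 0.62, 95% interval -2.52 to 0.03). It did not pass the test (unadjusted limma p = 0.055, adjusted p = 0.998), nor did it with the arrays scaled to one spread (-1.80, adjusted p = 0.32).

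Abcb6, the porphyrin transporter, gave the lowest p-value of the 6 for heat. In the TN mice the values ran from 1.55 in F235 through a median of 2.38 to 2.72 in F223. In the HS mice they ran from 0.93 in M256 through 1.42 to 2.01 in F241. All 6 HS mice lay below the TN mean, and 4 of 7 TN mice lay above the highest HS mouse. The means were 2.21 ± 0.45 (SD, n = 7) and 1.45 ± 0.42 (SD, n = 6). The difference was -0.76 (SE 0.28, 95% interval -1.33 to -0.18), the 8th smallest p of 1856 features. The unadjusted p was 0.012 by limma and 0.014 by the exact permutation test, and the adjusted p by limma was 0.999. Over 11 other ways of processing the arrays and testing them the difference ran from -1.09 to -0.63, with the unadjusted p between 0.0019 and 0.055. Leaving out 1 mouse at a time gave -0.88 (without F235) to -0.65 (without M256). Its difference was -0.67 (SE 0.44) among F mice and -0.85 (SE 0.41) among M mice. Arrays of 1 mouse differed widely for this gene: the SD between arrays of a mouse had a median of 0.83, against 0.48 over all features, and the arrays of M243 read 3.69, 0.53 and 3.08. The 31 hepatocyte markers had a median difference of -0.023 between the groups, and 15 of them were positive. Single markers varied more, with Apoa1 at -0.93 (SE 0.41). Whether the share of hepatocytes bears on Abcb6 was not tested.

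Abcd3, the peroxisomal importer, was the steadiest of the 6. The TN values ran from 1.81 in M251 through a median of 1.91 to 2.80 in M211, and the HS values from 1.46 in F222 through 2.15 to 2.43 in M242. The means were 2.04 ± 0.35 (SD, n = 7) and 2.04 ± 0.42 (SD, n = 6), a difference of -0.01 (SE 0.26, 95% interval -0.56 to 0.54; exact permutation p = 0.97). The interval excludes a 2-fold change. All 34 single arrays were above 0, from 0.65 to 2.94, as they were for Abcb6, from 0.37 to 3.99. The SD between mice, 0.38, was at the 13.4th percentile of all features.

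Abcc6 was below 0, the median spot, in every mouse. The TN values ran from -2.02 in F223 through a median of -1.03 to -0.59 in F235, and the HS values from -1.75 in F222 through -1.14 to -0.91 in M233. The means were -1.22 ± 0.54 (SD, n = 7) and -1.26 ± 0.31 (SD, n = 6). The difference was -0.04 (SE 0.28, 95% interval -0.62 to 0.54; exact permutation p = 0.87), which excludes a 2-fold change. Of the 34 arrays 33 were below 0, and the exception was 0.48 on a Cy5 array of F235. ABCC6 is known mainly from liver and kidney. Whether the rat probe read the mouse Abcc6 transcript was not tested.

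**Figure D3:**
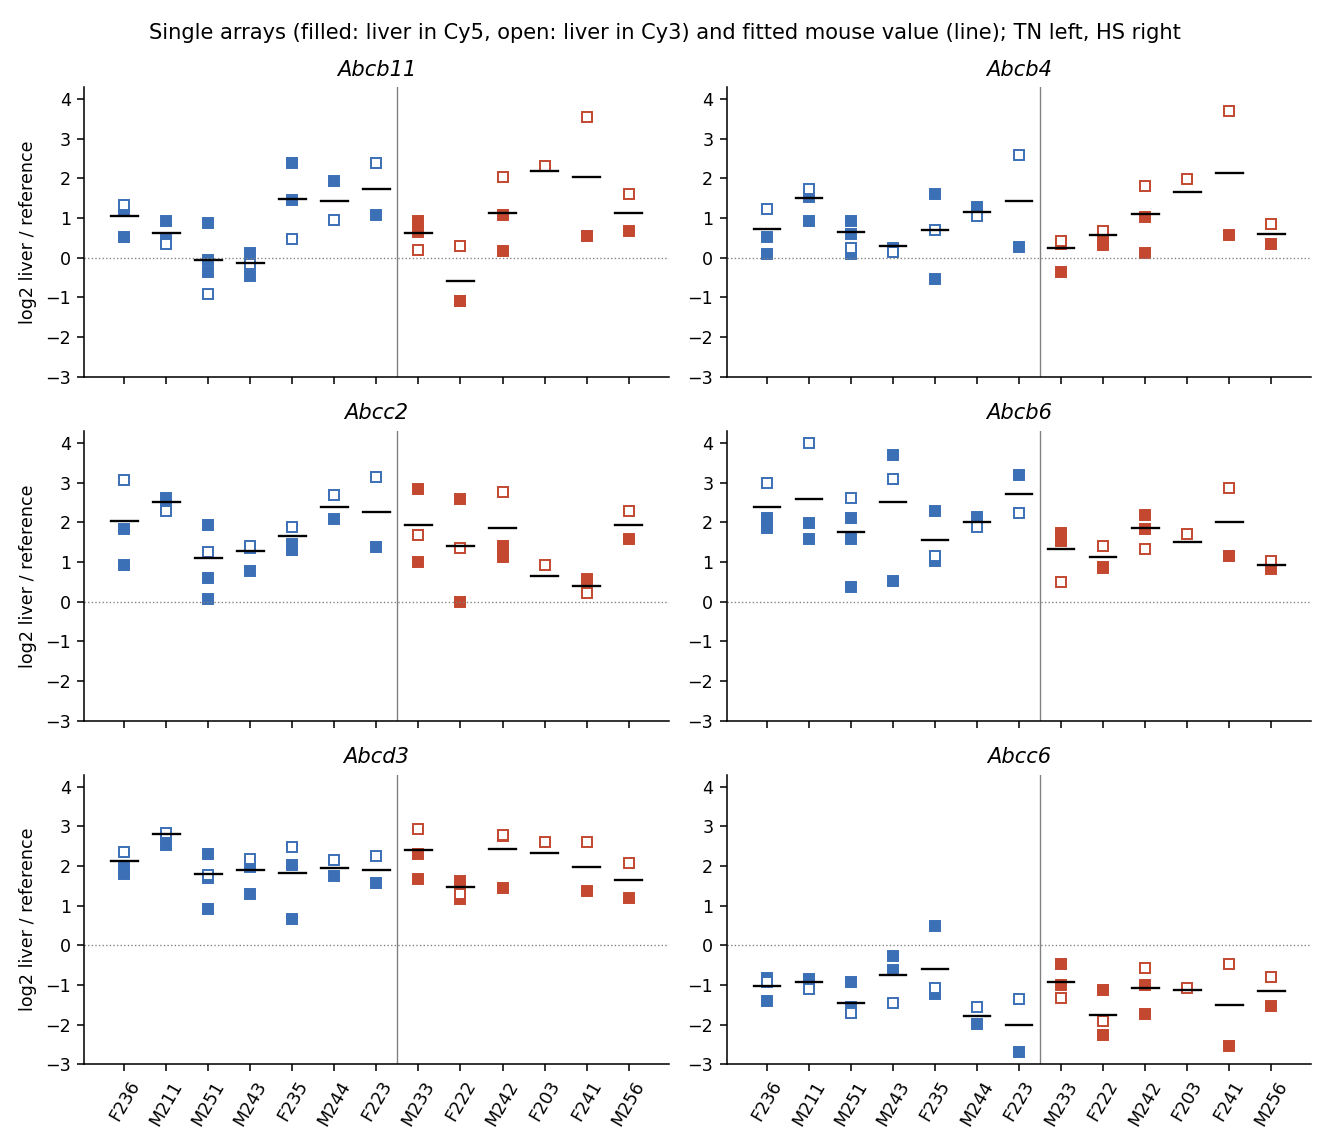
Log2 liver over reference ratio of every array (vertical axis) by mouse (horizontal axis), filled squares with liver RNA in Cy5 and open squares with it in Cy3, and a line at the fitted mouse value; TN mice in blue, HS mice in red. Arrays of F241 lie far apart for Abcb11 and Abcb4, and the Abcc6 squares lie below 0 on 33 of 34 arrays.

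The small differences did not have the same direction in the 2 dye sets. On arrays with liver RNA in Cy5 alone, HS minus TN was -0.62 for Abcb11 and -0.26 for Abcb4, and with Cy3 alone it was 1.03 and 0.48. The HS mouse F203 had a Cy3 array only, so the Cy5 set lacks it. Without F203, the arrays of both dyes together gave -0.0081 for Abcb11 and 0.0078 for Abcb4. Whether the dye or the set of mice made the turn was not tested. Abcb6 and Abcc2 were lower in HS on either set, at -0.73 and -0.19 in Cy5 and at -1.09 and -0.71 in Cy3. Without the Cy5 array of M244 and the Cy3 array of F241, the differences were -0.82 for Abcb6, -0.45 for Abcc2, -0.23 for Abcc6, -0.05 for Abcd3, -0.02 for Abcb4 and 0.07 for Abcb11, and 0 passed the test (limma, adjusted p = 1.00 for each).

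**Figure D4:**
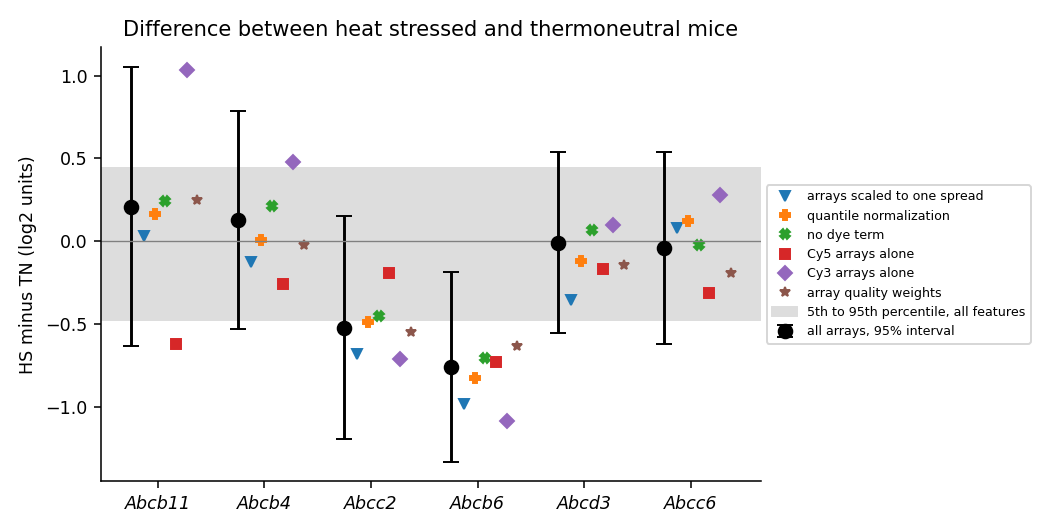
HS minus TN difference in log2 units (vertical axis) for each transporter: black points with 95% intervals from all arrays, coloured symbols from other ways of processing, and a grey band from the 5th to the 95th percentile of all features, -0.47 to 0.44. Abcb6 is the member whose interval lies wholly below 0, and Abcb11 has the widest interval.

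By letter, with heat as a term in the fit, 0 of the 6 passed the test, against 1 of 1856 features (0.0539%). Abcb11 averaged 1.32 ± 1.02 (SD, n = 6) in F mice and 0.69 ± 0.60 (SD, n = 7) in M mice, a difference of 0.62 (SE 0.39). The unadjusted p by limma was 0.13. Without F222 the difference was 1.05 (unadjusted limma p = 0.0025, adjusted p = 0.36), and without F203 it was 0.46. Abcb4 differed by 0.40 (SE 0.31) in the same direction and Abcc2 by -0.43 (SE 0.32). Those of Abcb6, Abcd3 and Abcc6 were within 0.20 of 0, each smaller than its SE. The heat differences of F and M mice differed for 0 of the 6 and for 0% of all features (limma, lowest adjusted p = 0.25, 22 features at an unadjusted p under 0.05).

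Genes of the same pathways were read from lists that leave out the 6 members. Over all features the median difference was -0.014, and 51.7% were below 0. Of 32 genes for bile acid synthesis and transport 17 were measured, 0 passed the test for heat and 11 were positive, with a median of 0.11. The smallest p-values were those of Nr5a2, a nuclear receptor that drives bile acid synthesis genes, at -0.65 (SE 0.34), and of the uptake carrier Slco2b1 at 0.48 (SE 0.28). In liver against the reference, 10 of the 17 were higher and 2 lower. Of 18 genes for phosphatidylcholine synthesis and transfer, the supply of ABCB4, 7 were measured and 0 passed, with 4 positive and a median of 0.09. Pcyt2, which makes CDP-ethanolamine, differed by 0.71 (SE 0.30, unadjusted limma p = 0.027), and Pemt, which methylates phosphatidylethanolamine, by 0.44 (SE 0.36). Of these 7, 4 were higher in liver than in the reference and 0 lower.

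Of 23 genes for heme synthesis and breakdown, beside the porphyrin carrier Abcb6, 6 were measured and 0 passed for heat, with 4 positive and a median of 0.03. Blvra, which turns biliverdin into bilirubin, differed by 0.39 (SE 0.35), and Alad, an early enzyme of heme synthesis, by -0.30 (SE 0.33). The 6 differences ran from -0.30 to 0.39, against -0.76 for Abcb6. In liver against the reference 2 were higher and 2 lower. Of 49 peroxisome genes 19 were measured and 0 passed, with 14 positive and a median of 0.10. Uox, the urate oxidase of the peroxisome core, differed by 0.82 (SE 0.41) and stood 3.90 log2 units above the reference, and Ehhadh, an enzyme of peroxisomal fatty acid oxidation, differed by 0.41 (SE 0.26). Of the 19, 12 were higher in liver, as Abcd3 was, and 2 lower.

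Of 26 genes for conjugation and organic anion export, 12 were measured and 0 passed for heat, with 9 positive and a median of 0.23. Slc22a7, an organic anion carrier, differed by 0.51 (SE 0.27) and Ugt1a2, a glucuronosyltransferase, by -0.62 (SE 0.36). Of the 12, 8 were higher in liver and 0 lower. One other ABC transporter of its list of 3 was measured. Tap2, a peptide carrier of antigen presentation, was 0.79 log2 units below the reference and differed between groups by -0.02 (SE 0.26).

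Across the 13 mice, Abcb11 and Abcb4 had the highest r of the 15 pairs of members, on deviations of their ratios from the group means. Pearson's r was 0.70 (permutation p = 0.0085, adjusted over 15 pairs of members p = 0.13) and Spearman's rho 0.79 (permutation p = 0.0024, adjusted p = 0.036). Without F222 and M243, the mice farthest from the median of Abcb11, r was 0.65, and without F241 and M244, which have the arrays that stood apart, 0.63. It was 0.56 in the TN mice (n = 7) and 0.78 in the HS mice (n = 6). The TN relation rests on M243 and M251, since r was -0.16 without them, while in HS r was 0.97 without F222 and F203, over the 4 mice left. Values of 1 mouse share its arrays, and the median r over all pairs of named genes was 0.26, with quartiles of -0.09 and 0.53. The r of Abcb11 with Abcb4 lay at the 89.8th percentile of those pairs. The permutation tests compare a pair with no correlation and not with this background, so they do not show a link particular to the 2 pumps. By r, 0 of the 15 pairs passed after adjustment, and by rho 1 did.

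Abcb4 and Abcc2 went together in the TN mice and apart in the HS mice. In TN, r was 0.87 (exact permutation p = 0.015, n = 7) and rho 0.93. It was 0.82 without M211 and F223, the mice farthest from the median. In HS, r was -0.89 (exact permutation p = 0.021, n = 6) and rho -0.83. The HS relation rests on F241 and F203, since r was -0.02 without them. Of 30 correlations within groups none passed after adjustment (0.31 for both of these by r), and the difference between the groups was not tested. Over all 13 mice, on deviations from the group means, r was -0.22.

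The named genes most like each transporter were taken as the 3 with the highest r over the 13 mice, on deviations from the group means. For Abcb11 they were Glul (0.97), F10 (0.92) and Hpd (0.87). For Abcb4 they were Asgr1 (0.95), Pemt (0.92) and Orm1 (0.91). Over all named genes the highest r of a gene had a median of 0.92, so values of this size are usual on these arrays. A highest r above that of Abcb11 was reached by 3.73% of named genes. Glul, the glutamine synthetase, ran from 0.69 in F222 to 3.31 in F203, which were also the lowest and the highest mouse for Abcb11. Without F241 and M244 the r of Abcb11 with Glul was 0.97. The nearest genes of Abcc2 were Nr5a2 (0.86), Igfals (0.73) and Robo2 (0.68), and those of Abcb6 were Slc28a2 (0.81), Golgb1 (0.81) and Nucb1 (0.80). For Abcd3 they were Ssr4 (0.88), Fth1 (0.86) and the peroxisomal enzyme gene Hsd17b4 (0.85), and for Abcc6 Rpl12 (0.87), Fnta (0.85) and H3f3b (0.83). The highest r of Abcd3, Abcc6, Abcc2 and Abcb6 was below that median of 0.92.

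**Figure D5:**
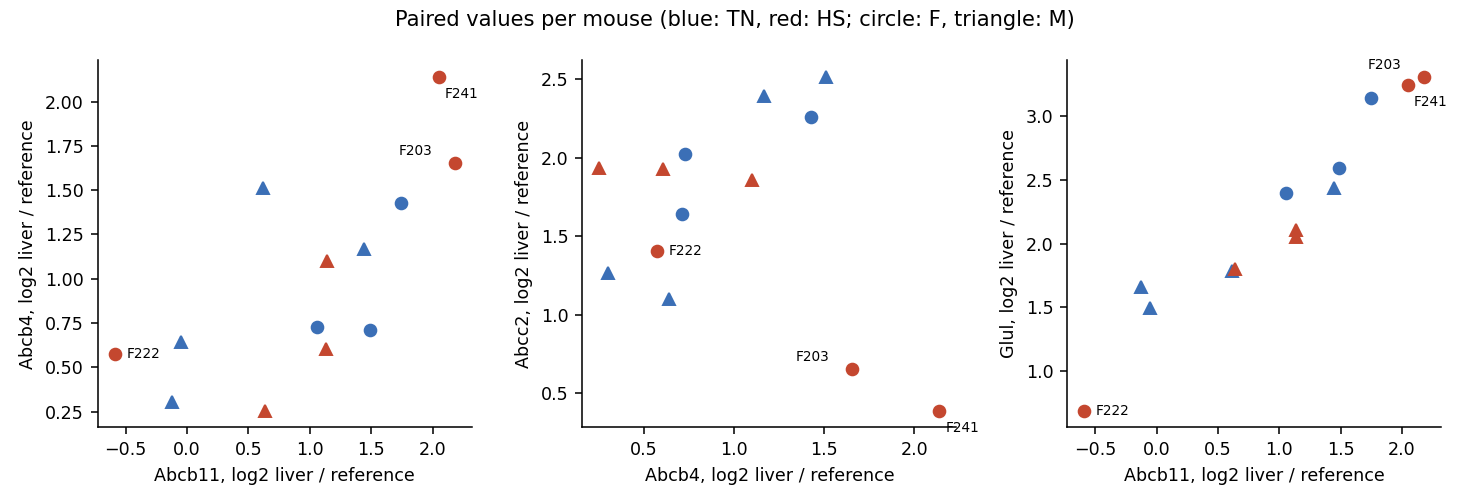
Log2 liver over reference ratios of each mouse for Abcb11 and Abcb4 (left), Abcb4 and Abcc2 (middle), and Abcb11 and Glul (right), 1 gene per axis; TN in blue, HS in red, circles for F and triangles for M. In the left and right panels both genes are high in F241 and F203, and in the middle panel those HS mice have high Abcb4 and low Abcc2. Group means were not removed in these plots.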

How the data were processed

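The authors deposited 1 log ratio of Cy5 over Cy3 for each of 1920 spots on 34 arrays, taken here as log2 from its range (-7.64 to 7.71); the log base, background correction and normalization stand in no label or header, so they are not stated. Per the labels, 21 arrays had liver RNA in Cy5 and 13 in Cy3. Array medians ran from -0.88 to 1.17, so each array was centred on its median. Of the spots, 1083 had 1 gene symbol, 7 several and 830 none; spots of a gene were averaged, and each member had 1 spot with a value on all arrays. Least squares gave 13 mouse values and a dye term per feature. The mouse is the replicate, since several arrays read the same RNA. limma 3.58.1 in R 4.3.3 tested them (adjusted p under 0.05), and scipy 1.17.1 ran the permutations (100000, or exact). Unadjusted, pairwise and list results are descriptions. The fit was tested on simulated data, where 94.7% of 95% intervals held the true value. The 6 members and all lists were chosen with earlier results of these data known, so the place of Abcb6 among the smallest p-values is no independent support. Beside the members, the named genes are, for every list, the 2 with the lowest p for heat, and the 3 nearest genes of each member. Glul and the pair of Abcb4 and Abcc2 were singled out after their values were seen. The tests of member pairs, that of Abcb11 and Abcb4 among them, were not planned beforehand. Alternatives covered centring, scaling, normalization, dye, array weights, the 2 arrays that stood apart, the letter, the test and each mouse left out.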

Additional observations from a re-analysis of the deposited data

Results flagged for a closer look

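In the TN mice, M211 stood apart for Abcd3. Its value was 2.80, the next was 2.13 and the lowest 1.81, so the gap to its neighbour was 0.68 of the range of the group. Its 3 arrays read 2.77, 2.525 and 2.82, and without it the HS minus TN difference was 0.11. Of the 12 groups (6 genes in 2 groups) 1 was marked this way, and chance alone marks about 1 in 20.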

How the results depend on the processing

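The liver over reference result kept its direction and passed the test for all 6 members under 9 other settings and with each of 13 mice left out. The HS minus TN count stayed 0 under all 11 settings and 13 omissions, and Abcb6 and Abcc2 stayed negative throughout. The sign of the other 4 turned; none was called. Abcb11 was -0.62 on Cy5 arrays alone. Abcb4 was -0.12 with arrays scaled to one spread, -0.26 on Cy5 arrays alone, -0.017 without the 2 arrays that stood apart and -0.023 with array quality weights. Abcc6 was 0.080 scaled, 0.12 with quantile normalization and 0.28 on Cy3 arrays alone. Abcd3 was 0.068 with no dye term, 0.099 on Cy3 arrays alone and 0.0061 with the letter as a covariate. With each mouse left out, the differences ran from -0.0081 (without F203) to 0.56 (without F222) for Abcb11, -0.066 (F241) to 0.28 (M233) for Abcb4, -0.16 (F223) to 0.055 (F235) for Abcc6 and -0.084 (M242) to 0.11 (M211) for Abcd3. The F minus M count ran from 1 to 2 features (2 without F222), and Abcb6 from -0.032 to 0.24. The interaction turned to -0.40 for Abcb6 and 0.035 for Abcc6 with scaled arrays, where 1 feature passed (adjusted p = 0.023), and to 0.072 for Abcd3 without M242. The cause was not tested. A change well under 2-fold would mostly be missed: 8% of simulated differences of 0.5 log2 units were called. That share was reached beside larger differences in other features, so it is too high for a change in a few features alone. Fits of single spots gave no value, since each member had 1 spot. No paired analysis was possible because the technical replicate numbers pair no mice.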
